A study of Homo sapiens with 6 samples.

Results

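The genes that make creatine, carry it into the cell and pass its phosphate on were followed in HEK293 cells with and without MUL1. The set held 8 genes out of the 57123 in the count tables: GATM and GAMT, which make creatine, SLC6A8, which imports it, and the creatine kinases CKB, CKM, CKMT1A, CKMT1B and CKMT2. They were chosen by symbol for their known role, and all 8 passed the filter on low counts that left 25125 genes for testing.

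HEK293 is a line derived from human embryonic kidney cells. The series held 3 libraries of wild type (WT) cells and 3 of MUL1(-/-) cells, in which the gene of the mitochondrial E3 ubiquitin ligase MUL1 had been inactivated by CRISPR-Cas9. Both genotypes were grown in DMEM with fetal calf serum, glutamine, penicillin and streptomycin, and no other treatment is given. The sources used here do not state how many clones the sequenced MUL1(-/-) cells represent. They also do not state whether the 3 libraries of a genotype came from separate cultures, so p-values measure the spread between these libraries, which may be technical.

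Creatine is made in a pair of steps. GATM joins arginine and glycine into guanidinoacetate in mitochondria, releasing ornithine, and GAMT then adds a methyl group from S-adenosylmethionine in the cytosol. SLC6A8 takes creatine up from outside together with sodium and chloride. Creatine kinases move phosphate between ATP and creatine, so that phosphocreatine acts as a fast reserve and a shuttle of energy. CKB is the cytosolic enzyme of brain and many other tissues and CKM that of muscle, while the mitochondrial enzymes are the ubiquitous one, encoded by CKMT1A and CKMT1B, and the sarcomeric one, encoded by CKMT2. In the body the first step is known above all from kidney and pancreas and the second from liver.

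Depth was high. The totals over all exon bins lay between 132849479 and 149317215 in WT and between 127466071 and 128125459 in MUL1(-/-), and a read lying over several bins adds to all of them. Levels are given as CPM, counts scaled to a library of 1000000 after TMM normalization, on which 1 count was worth 0.00707 to 0.00807 CPM. The MUL1 transcript did not check the labels: the WT libraries averaged 16.5 ± 2.15 CPM and those labelled MUL1(-/-) 18.2 ± 1.35 CPM (mean ± SD over 3 libraries, as throughout), the fit giving a difference of 0.14 on the log2 scale (SE 0.10, adjusted p = 0.321), and directions below follow the labels. An edit can remove a protein without lowering its transcript. All 8 markers listed for HEK293 cells were measured in both genotypes. Their summed level was 1370 to 1585 CPM in WT and 996 to 1168 CPM in MUL1(-/-), with NEFM called higher and PAX2 called lower. The sum was led by VIM (842 ± 93.1 and 665 ± 61.7 CPM) and KRT8 (324 ± 18.7 and 170 ± 12.1 CPM), both lower in MUL1(-/-). At an adjusted p under 0.05, 1 of the 8 rose and 3 fell. Summed markers of fibroblasts were at 29.4 to 39.4 CPM in WT and 40.5 to 56.4 CPM in MUL1(-/-). Those of blood cells were at 0.969 to 1.60 and 1.92 to 2.44 CPM. Both sums moved with the genotype, though single markers differed. Of the 6 fibroblast markers 3 rose at the adjusted p alone. COL1A1, the highest of them in WT, fell (log2 fold change -0.39, adjusted p = 0.00832). Of 4 tested blood cell markers 2 rose, while HBB was at -0.81 (adjusted p = 0.165). Summed proximal tubule markers overlapped between the genotypes, though 3 of the 5 tested rose. The part of these marker lists in the results below was not tested.

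A gene was called where the adjusted p was under 0.05 and the log2 fold change, MUL1(-/-) over WT, was above 1 or below -1. By this rule 2 of the 8 creatine genes were called, GAMT lower and CKM higher. The background was 4.23% of all tested genes called higher and 3.87% called lower. On the adjusted p alone, 4 members rose (SLC6A8, CKM, CKMT1A and CKMT1B) and 2 fell (GAMT and CKB), against 18.8% of all tested genes higher and 18.7% lower. CKMT1A and CKMT1B are near-identical in sequence, so they may not be independent measurements. In 6 of the 8, the 3 libraries of one genotype lay wholly above the 3 of the other, which was true of 48.5% of all tested genes. The median log2 fold change was 0.31 over the 8 members and -0.01 over all tested genes. In these bulk libraries fewer cells that use a gene and less of its RNA per cell cannot be told apart.

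**Figure D1:**
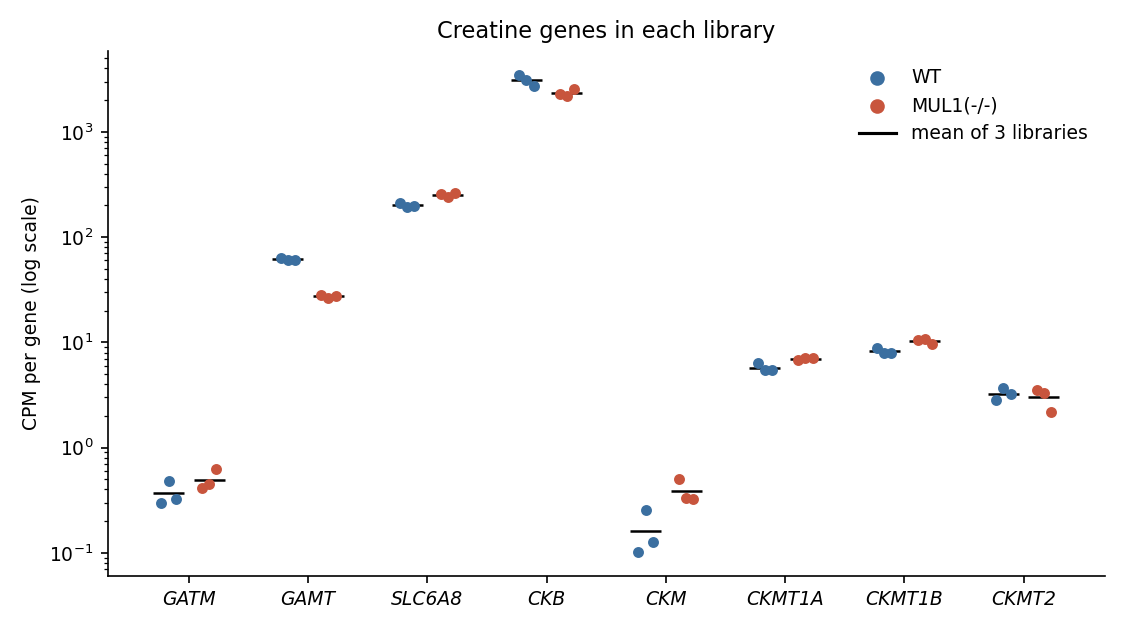
Level of each of the 8 creatine genes in CPM on a log axis, one point per library, with WT in blue, MUL1(-/-) in red and a bar at the mean of 3 libraries. CKB stands highest at 2172 to 3496 CPM, GATM and CKM lie under 1 CPM in every library, and GAMT shows the clearest separation, with 60.2 to 63.8 CPM in WT and 26.2 to 28.1 CPM in MUL1(-/-).

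The members covered a wide range of levels. Levels were also taken per kilobase of exon bins, a scale that compares genes only roughly. In WT the mean was 1170 ± 141 CPM per kb for CKB, 36.4 ± 2.00 for SLC6A8 and 35.2 ± 1.17 for GAMT. It was 2.37 ± 0.165 for CKMT1B, 1.85 ± 0.174 for CKMT1A and 1.19 ± 0.155 for CKMT2. CKM was at 0.0973 ± 0.0493 and GATM at 0.0555 ± 0.0148 CPM per kb. The neighbours SLC6A8 and GAMT differed there by less than the spread between libraries, and so did CKM and GATM. CKB ranked 24 of 25125 tested genes in WT and 29 in MUL1(-/-) on this scale. GAMT ranked 1323 in WT and 3093 in MUL1(-/-), and SLC6A8 ranked 1276 and 1002. Because reads are counted in each bin they touch, genes cut into many short bins, such as CKB with 42 bins in 2669 bases, stand higher on it.

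Of the enzymes that make creatine, GATM was close to the limit of the data. The gene (ENSG00000171766) lies on chromosome 15 from 45361124 to 45402327 of GRCh38 on the minus strand. Its counts were 38, 68 and 41 in WT and 52, 56 and 78 in MUL1(-/-), or 0.299, 0.481 and 0.325 CPM against 0.411, 0.447 and 0.629 CPM. The genotypes overlapped, and the log2 fold change of 0.42 (SE 0.26) had an adjusted p of 0.221. No single one of its 41 exon bins reached a mean of 10 counts.

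GAMT, the enzyme of the methylation step, fell more than any other member. The gene (ENSG00000130005) lies on chromosome 19 from 1397084 to 1401570 on the minus strand, and none of its 11 exon bins touches an exon of another gene. The 3 WT libraries had 63.8, 60.2 and 60.3 CPM, from 8100, 8508 and 7593 counts. The 3 MUL1(-/-) libraries had 28.1, 26.2 and 27.5 CPM, from 3553, 3283 and 3404 counts. Every MUL1(-/-) library was below every WT library, and the spread within a genotype was small beside the gap. The means were 61.4 ± 2.04 and 27.3 ± 0.945 CPM, a 2.25-fold lower level the log2 fold change being -1.17 (SE 0.07, adjusted p = 1.33e-08). A test against the fold threshold itself rather than against 0 (glmTreat) gave GAMT an adjusted p of 0.115, so that a fall of more than 2-fold was not established by that test.

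The fall ran along the whole of GAMT. Of its exon bins, 10 had a mean of at least 10 counts, and all 10 were lower in MUL1(-/-) with no overlap between the genotypes. Their log2 ratios ranged from -1.22 to -0.79 with a median of -1.17. The most counted, the last bin of the gene (416 bases, 1397084 to 1397499), had 12.5, 12.4 and 11.2 CPM in WT and 5.70, 5.04 and 5.39 CPM in MUL1(-/-). Near the 5′ end, the bin of 248 bases from 1401296 to 1401543 went from 7.67 ± 0.627 to 3.45 ± 0.181 CPM. Bins 8 to 10, which hold few reads, together came to 1.57 ± 0.258 CPM in WT against 0.810 ± 0.0325 CPM.

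**Figure D2:**
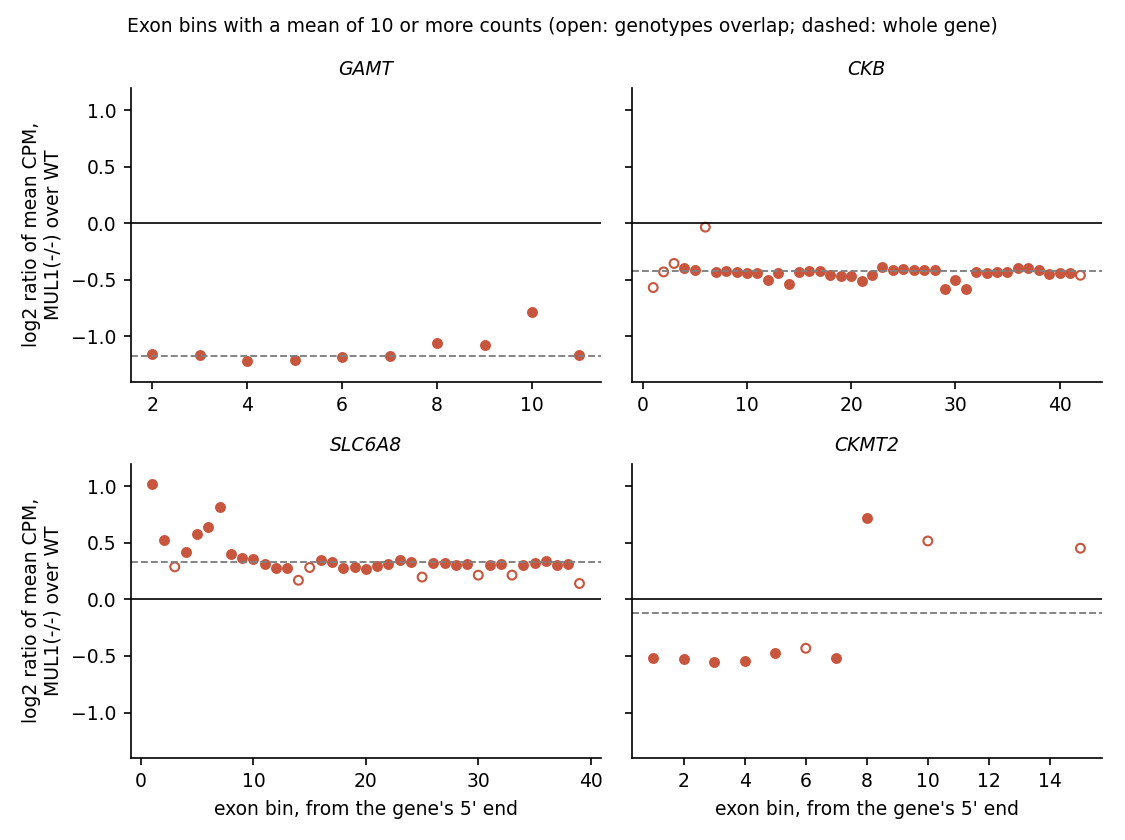
Log2 ratio of mean CPM, MUL1(-/-) over WT, for each exon bin with a mean of 10 or more counts of GAMT, CKB, SLC6A8 and CKMT2, numbered from the 5′ end of the gene. Filled points mark bins in which the genotypes do not overlap, open points those in which they do, and the dashed line the log2 fold change of the whole gene; GAMT and CKB lie below 0 throughout, SLC6A8 lies above 0 and is highest at its first bin (1.02), and CKMT2 is below 0 in bins 1 to 7 and above 0 in the later ones.

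GAMT did not stand apart from the genes around it. The 10 tested genes on each side start between 1275438 and 1508375 on chromosome 19, a stretch of 232.9 kb. All 20 were lower in MUL1(-/-) at the adjusted p alone, 13 of them were called lower, and in all 20 the genotypes did not overlap. Their median log2 fold change was -1.14, so GAMT differed from it by -0.03, and 10 of the 20 fell by more than GAMT. Over the whole of chromosome 19, in contrast, the median log2 fold change of the 1771 tested genes was 0.31, with 69 called lower and 129 called higher.

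The neighbours encode proteins of varied function. RPS15, a protein of the small ribosomal subunit, went from 3136 ± 192 to 1563 ± 45.3 CPM (log2 fold change -1.005), and REEP6, a protein of the endoplasmic reticulum, from 13.7 ± 1.62 to 4.17 ± 0.502 CPM (-1.72). The log2 fold change was -1.58 for PCSK4, a protease of the proprotein convertase family, -1.44 for EFNA2, a ligand of Eph receptors, -1.38 for ADAMTSL5, -1.2 for PWWP3A and -1.08 for FAM174C. The protein-coding genes nearest to GAMT moved less: NDUFS7, a subunit of respiratory complex I that lies on one side, went from 176 ± 19 to 124 ± 12.2 CPM (-0.50), and DAZAP1, an RNA-binding protein on the other, from 449 ± 18 to 327 ± 5.44 CPM (-0.46). Of the 20 neighbours 11 were protein-coding, with 7 of these called lower. The lowest values, RPS15P9 at -2.24 and the long noncoding RNA gene ENSG00000267372 at -2.57, belonged to genes under 1 CPM. The bins of 7 neighbours were mostly shared with exons of other genes, so those 7 were not independent measurements.

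Within each library, the level of GAMT relative to these neighbours was almost the same in both genotypes. The log2 CPM of GAMT less the mean log2 CPM of the 20 genes was 2.43, 2.403 and 2.52 in WT and 2.48, 2.36 and 2.47 in MUL1(-/-). The means were 2.45 ± 0.0609 and 2.44 ± 0.0654, a difference of -0.01 (exact two-sided permutation test, p = 0.8, where 3 libraries against 3 cannot give less than 0.1). The difference from the neighbours' median depended on which neighbours were taken: it was -0.24 with 5 genes on each side and 0.11 when genes were counted in unshared bins alone.

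The stretch of lower genes was longer than this window. Counting outward from GAMT until a tested gene had a positive log2 fold change, a run noticed after the values were seen, 47 consecutive tested genes from KISS1R to MEX3D had negative values, 34 before GAMT and 12 after it. They start between 917287 and 1554669, over 637.4 kb. Their median log2 fold change was -1.08, 44 were lower at the adjusted p alone and 27 were called lower. The first gene beyond the run on one side was R3HDM4 (log2 fold change 0.21, adjusted p = 0.0959) and on the other MBD3 (0.30, adjusted p = 0.0260). Why the stretch was lower was not tested.

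**Figure D3:**
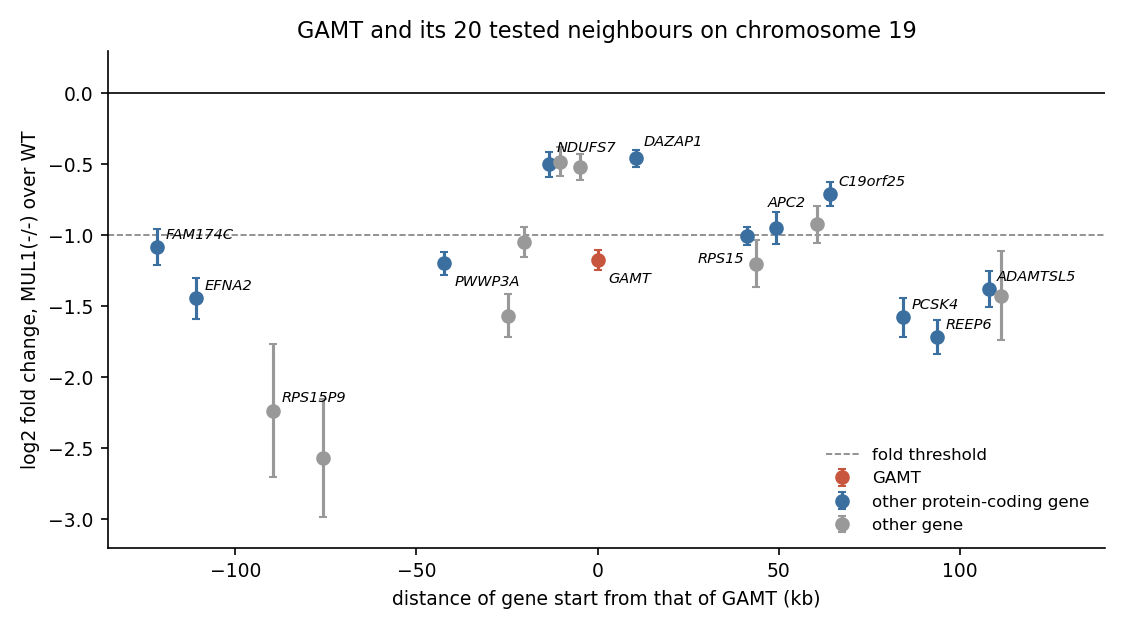
Log2 fold change, MUL1(-/-) over WT, of GAMT (red) and its 20 tested neighbours against the distance of each gene's start from that of GAMT in kb, with the standard error of the fit as bars, protein-coding genes in blue and other genes in grey. All 21 points lie below 0, from -2.57 to -0.46, and GAMT at -1.17 sits in the middle of them.

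Elsewhere in the genome, among genes averaging 1 CPM or more, the profiles over the 6 libraries that were most like that of GAMT were those of BIN1 on chromosome 2, FBXO44 on chromosome 1 and PRDM13 on chromosome 6. Likeness was measured as the mean absolute difference between centred log2 CPM values, over 15858 genes, and was 0.0202, 0.0247 and 0.0249. Their log2 fold changes were -1.16, -1.14 and -1.19, and values close to that of GAMT follow from picking genes by likeness of profile.

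SLC6A8, the creatine transporter, rose by less. The gene (ENSG00000130821) lies on chromosome X from 153688099 to 153696593 on the plus strand. Its level was 212, 191 and 196 CPM in WT and 254, 239 and 259 CPM in MUL1(-/-), with no overlap. The means were 200.1 ± 11 and 251 ± 10.6 CPM, a 1.25-fold higher level (log2 fold change 0.33, SE 0.07, adjusted p = 0.00135). The median of its 20 neighbours on the X chromosome was -0.11, with 1 called higher and 1 called lower.

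The rise of SLC6A8 was not even along the gene. All 39 of its bins were higher in MUL1(-/-), 32 of them with no overlap, with log2 ratios from 0.14 to 1.02 and a median of 0.31. The first bin (624 bases, 153688099 to 153688722) had 3.57, 2.95 and 3.28 CPM in WT and 8.14, 5.27 and 6.43 CPM in MUL1(-/-). The last and most counted bin (1193 bases, 153695401 to 153696593) had 19.6, 16.9 and 17.5 CPM against 19.2, 18.7 and 21.7 CPM. The first bin thus separated the genotypes clearly, while the last did not. When each gene was represented by its most counted bin in place of the sum, the log2 fold change of SLC6A8 was 0.16 with an adjusted p of 0.164, which no longer passed on the adjusted p alone.

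The proportion between the transcripts of the transporter and of the methylation enzyme differed accordingly. It follows from the fall of GAMT and the rise of SLC6A8 given above and is not a separate result. Per kilobase, the level of SLC6A8 over that of GAMT was 1.06, 1.01 and 1.03 in WT and 2.87, 2.89 and 2.99 in MUL1(-/-). These ratios of transcript levels did not overlap, and the spread within a genotype was 0.0238 and 0.0669 (SD). Their size depends on how each gene is cut into bins, which is the same in both genotypes. A ratio of 1.03 in WT therefore does not show that the transcripts were equally abundant.

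CKB, the cytosolic brain-type kinase, was the most abundant member and fell. The gene (ENSG00000166165) lies on chromosome 14 from 103519659 to 103523111 on the minus strand. Its level was 3496, 3124 and 2746 CPM in WT and 2289, 2172 and 2530 CPM in MUL1(-/-). The lowest WT library stood only a little above the highest MUL1(-/-) library, and WT had the wider spread. The means were 3122 ± 375 and 2330 ± 182.5 CPM, a 1.34-fold lower level (log2 fold change -0.42, SE 0.08, adjusted p = 0.00105). All 42 of its bins were lower, 37 with no overlap, at log2 ratios of -0.58 to -0.03. Around it the 20 neighbours on chromosome 14 had a median log2 fold change of 0.04, with none called by edgeR, DESeq2 or limma (11 had an unadjusted p under 0.05 by edgeR) and 3 below CKB.

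CKM, the muscle-type cytosolic kinase, was higher in MUL1(-/-) but rested on few reads. The gene (ENSG00000104879) lies on chromosome 19 from 45306414 to 45322977 on the minus strand, 43.91 Mb from GAMT. Its counts were 13, 36 and 16 in WT and 63, 42 and 40 in MUL1(-/-). In CPM these were 0.102, 0.255 and 0.127 against 0.498, 0.336 and 0.323, with no overlap. The log2 fold change was 1.24 (SE 0.34, adjusted p = 0.0101). The call was lost without WT library 1 (log2 fold change 1.00, adjusted p = 0.0502), without MUL1(-/-) library 1 (1.02, adjusted p = 0.0645) and with the most counted bin alone (1.11, adjusted p = 0.0532).

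Beside CKM stood markers of muscle and the genes around it. The summed level of the 7 skeletal muscle markers that matched the tables was 1.65 to 1.90 CPM in WT and 2.78 to 3.53 CPM in MUL1(-/-). Skeletal actin, ACTA1 (0.643 ± 0.160 and 1.93 ± 0.237 CPM, log2 fold change 1.59, adjusted p = 1.41e-05), held nearly all of the difference in that sum. ACTA1 led the sum in MUL1(-/-), while DES led it in WT, at 0.714 ± 0.199 CPM. Of the 7, 4 could be tested and ACTA1 alone passed the test. The log2 fold change of DES was 0.16 and that of MB -0.43, and TNNT3, too low to be tested, went the other way, at 0.0814 ± 0.0361 CPM in WT against 0.0186 ± 0.00442 CPM. No marker was at 0 in both genotypes, but MYOG, a master regulator of muscle differentiation, was at 0.0334 ± 0.0131 and 0.0480 ± 0.0348 CPM, close to the limit of 0.0212 to 0.0242 CPM that a count of 0 allows. Of the 20 tested neighbours of CKM, 19 had a positive log2 fold change. At the adjusted p alone 14 were higher (18.8% of all tested genes were), and 1 was called higher (4.23%). Their median was 0.47, or 0.76 below CKM, beside 0.31 over the 1771 tested genes of chromosome 19. The part of the muscle markers or of the neighbours in the CKM value was not tested. Among genes of at least 1 CPM, ASPDH on chromosome 19, ENSG00000279289 on chromosome 6 and CYP3A5 on chromosome 7 had the profiles most like CKM, though with mean absolute differences of 0.17, 0.196 and 0.233 on the log2 scale.

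**Figure D4:**
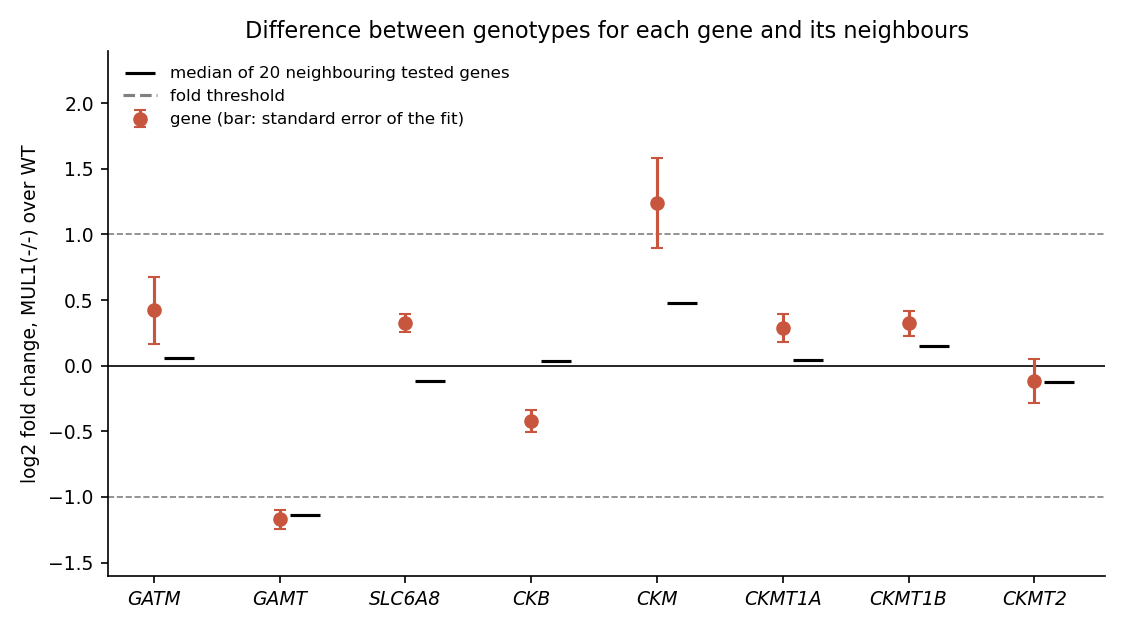
Log2 fold change, MUL1(-/-) over WT, of each creatine gene (red points, with the standard error of the fit) beside the median of its 20 neighbouring tested genes (black bars), with dashed lines at the fold threshold. GAMT (-1.17) coincides with its neighbours (-1.14), CKM (1.24) lies above neighbours that are themselves higher (0.47), and the neighbours of the other 6 genes lie between -0.13 and 0.15.

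The ubiquitous mitochondrial kinase is encoded by a near-identical pair of genes on chromosome 15, both on the plus strand: CKMT1B (ENSG00000237289) from 43593054 to 43604901 and CKMT1A (ENSG00000223572) from 43692886 to 43699222. Their transcripts CKMT1A-204 and CKMT1B-201 are both 1779 bases long and differ at 4 bases. Counted from the first base of the transcript, with the base of CKMT1A first, these are G1448A and C1478T in the coding part and A1679C and T1733C after it. The coding parts are identical at 1252 of 1254 bases (99.8%), and 1553 of 1730 windows of 50 bases (89.8%) occur in both transcripts. Between any other pair of creatine kinase genes no such window is shared, and the identity of the coding parts is 64.2% to 78.8%, highest for CKB and CKM. The stretch of 60 bases that holds both coding differences is shown for all 5 genes, to make plain how little separates the pair and how much separates the other kinases. Capitals mark bases that differ from CKMT1A.
CKMT1A (chr15:43698670-43698729, plus strand): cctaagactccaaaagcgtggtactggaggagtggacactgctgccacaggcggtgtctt
CKMT1B (chr15:43598856-43598915, plus strand): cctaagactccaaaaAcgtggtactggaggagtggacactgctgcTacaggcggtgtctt
CKMT2 (chr5:81263520-81263579, plus strand): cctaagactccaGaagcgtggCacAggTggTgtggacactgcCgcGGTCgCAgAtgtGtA
CKB (chr14:103520009-103520147, minus strand, across an exon junction): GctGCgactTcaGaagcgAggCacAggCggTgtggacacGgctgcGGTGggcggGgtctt
CKM (chr19:45306895-45307486, minus strand, across an exon junction): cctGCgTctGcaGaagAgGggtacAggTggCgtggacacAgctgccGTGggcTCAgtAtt
In this stretch CKMT1B differs from CKMT1A at 2 bases, CKMT2 at 15, CKB at 16 and CKM at 18.

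Reads from the identical parts cannot be placed on one copy by sequence, and how the counting treated such reads is not given in the sources used here. The bins that hold the 4 differences carried far more of the counts than their length: 62.2% of the CKMT1A counts in 12.1% of its bin length, and 49.0% of the CKMT1B counts in 10.4%. Levels of the single copies are therefore uncertain, and the sum of both is given first. Together the copies had 15.2, 13.3 and 13.3 CPM in WT and 17.2, 17.8 and 16.8 CPM in MUL1(-/-). The genotypes did not overlap. The means were 13.96 ± 1.11 and 17.3 ± 0.505 CPM, the log2 fold change being 0.31 (SE 0.09, adjusted p = 0.0122).

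Taken singly, both copies pointed the same way. CKMT1A had 6.37, 5.41 and 5.45 CPM in WT and 6.77, 7.17 and 7.11 CPM in MUL1(-/-) (log2 fold change 0.29, SE 0.11, adjusted p = 0.0442), and it no longer passed on the adjusted p alone without WT library 2 or 3 or without any one of the MUL1(-/-) libraries, where the log2 fold change was 0.24 to 0.33 and the adjusted p at most 0.183. CKMT1B had 8.88, 7.94 and 7.84 CPM against 10.5, 10.7 and 9.73 CPM (0.32, SE 0.10, adjusted p = 0.0160), and it no longer passed on the adjusted p alone without WT library 2 (0.29, adjusted p = 0.0818). In the bins with the differences, the last bin of CKMT1A (250 bases, 43698973 to 43699222) had 1.93, 1.69 and 1.67 CPM in WT and 2.25, 2.64 and 2.41 CPM in MUL1(-/-). The matching bin of CKMT1B (235 bases, 43599157 to 43599391) had 2.19, 1.89 and 1.75 CPM against 2.78, 2.55 and 2.60 CPM. Neither bin overlapped between the genotypes. The neighbours of CKMT1A and CKMT1B had median log2 fold changes of 0.04 and 0.15.

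CKMT2, the sarcomeric mitochondrial kinase, was not called as a whole gene. The gene (ENSG00000131730) lies on chromosome 5 from 81233285 to 81266397 on the plus strand. Its level was 2.83, 3.68 and 3.26 CPM in WT and 3.55, 3.31 and 2.16 CPM in MUL1(-/-), which overlapped (log2 fold change -0.12, SE 0.17, adjusted p = 0.630). Without MUL1(-/-) library 3 the value turned to 0.07 (adjusted p = 0.727). The antisense gene CKMT2-AS1 was at 6.09 and 5.86 CPM, and it was called in neither direction.

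Inside CKMT2, the start and the rest of the gene went opposite ways, a split seen after the values were known and given as a description. The first 7 bins, which together cover 97 bases, had 2.20, 2.26 and 2.22 CPM in WT and 1.56, 2.06 and 1.10 CPM in MUL1(-/-). These bins overlay one another's reads, since a read of the first exon is counted in several, and they held more counts than the rest of the gene in WT. The 25 later bins, 2639 bases in all, had 0.630, 1.42 and 1.04 CPM in WT and 1.99, 1.25 and 1.07 CPM in MUL1(-/-), with 22 of them higher and 3 lower. The genotypes did not overlap in the first block and overlapped in the second. The bin of 164 bases from 81244042 to 81244205 was the only later bin with a mean of 10 counts or more and no overlap, with 0.0472, 0.0707 and 0.0953 CPM against 0.142, 0.0959 and 0.113 CPM, and it held 6 to 18 counts per library.

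Because CKB is so much more abundant than the others, the creatine kinase transcripts as a sum followed it. Per kilobase, the 5 genes together came to 1315, 1176 and 1034 CPM per kb in WT and 864, 821 and 954 in MUL1(-/-). CKB made up 99.5% ± 0.0387 of this sum in WT and 99.2% ± 0.10 in MUL1(-/-). CKMT1A and CKMT1B together made up 0.36% ± 0.0245 and 0.597% ± 0.0611, and CKM 0.00839% ± 0.00427 and 0.0266% ± 0.00737. CKB over CKMT1A plus CKMT1B was 277 ± 18.3 in WT and 168 ± 17.6 in MUL1(-/-), with no overlap between the genotypes. The size of these shares and ratios depends on how each gene is cut into bins, which is the same in both genotypes. CKB stands higher on this scale, with 42 bins in 2669 bases. CKMT1A and CKMT1B had 62.2% and 49.0% of their counts in 12.1% and 10.4% of their bin length, so bins with few reads lower their values.

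**Figure D5:**
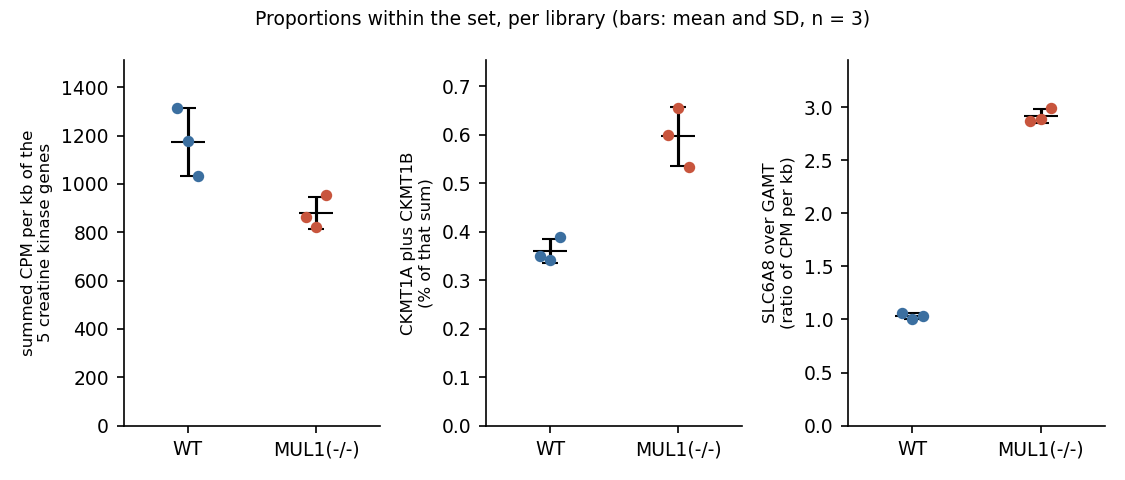
Left, the summed level of the 5 creatine kinase genes in CPM per kb of exon bins; middle, the share of that sum held by CKMT1A plus CKMT1B in percent; right, the level of SLC6A8 over that of GAMT per kb. Points are libraries and bars the mean and SD of 3. The sum is lower in MUL1(-/-), the share of CKMT1A plus CKMT1B is higher (0.36% to 0.597%) and the transporter ratio goes from 1.03 to 2.92. The size of the share and the ratio depends on how each gene is cut into bins.

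Around the members, lists of related pathways were chosen with earlier results of these data known, so ranking them is a description only. Among these lists, the genes that supply arginine and glycine or handle ornithine held the largest changes. Of the 16 listed, 15 were tested, and 1 was called higher and 1 lower (4.23% and 3.87% of all tested genes were). At the adjusted p alone 4 rose and 3 fell (18.8% and 18.7% of all tested genes). OAT, the mitochondrial enzyme that breaks down ornithine, had 173, 161 and 164 CPM in WT and 1077, 1163 and 1416 CPM in MUL1(-/-), far apart, the log2 fold change being 2.87 (SE 0.09, adjusted p = 9.45e-12). SLC7A3, a carrier of arginine and other cationic amino acids, had 178, 218 and 131 counts in WT and 7, 1 and 0 in MUL1(-/-), where it was almost absent; its fitted log2 fold change of -5.90 (SE 0.44, adjusted p = 1.26e-07) depends on the prior count. ASS1, which makes the precursor of arginine and was picked out after its values were seen, had 339, 321 and 242 CPM against 173, 174 and 153 CPM, with a log2 fold change of -0.85 (adjusted p = 1.38e-05) that did not reach the fold threshold. The median over the 15 genes was -0.03.

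Among the 17 genes of methyl group supply, which provide the S-adenosylmethionine that GAMT uses and clear its product, 16 were tested. None was called at both thresholds by edgeR, DESeq2 or limma (by edgeR 4.23% of all tested genes were called higher and 3.87% lower). By edgeR 9 had an unadjusted p under 0.05, and 3 rose and 4 fell at the adjusted p alone (18.8% and 18.7% of all tested genes). AHCY, which hydrolyses the S-adenosylhomocysteine that GAMT releases and was also picked out after its values were seen, had 473, 441 and 360 CPM in WT and 262, 263 and 255 CPM in MUL1(-/-) (log2 fold change -0.71, SE 0.09, adjusted p = 1.35e-05). The median of this list was 0.05.

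Other enzymes pass phosphate between nucleotides. Of their 16 adenylate and nucleoside diphosphate kinase genes, all tested, 1 was called lower (3.87% of all tested genes were), and at the adjusted p alone 1 rose and 4 fell (18.8% and 18.7% of all tested genes), with a median log2 fold change of -0.11. The called gene was NME5, a member of the nucleoside diphosphate kinase family, with 3.57, 4.24 and 6.47 CPM in WT and 1.84, 2.10 and 1.99 CPM in MUL1(-/-) (log2 fold change -1.27, SE 0.18, adjusted p = 7.03e-05). WT library 3 was the highest, and without it no gene of the list was called.

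The partners of mitochondrial creatine kinase are the adenine nucleotide carriers, the voltage-dependent anion channels of the outer membrane and the enzymes of cardiolipin, the lipid that anchors the kinase. Of 10 listed 9 were tested and none was called at both thresholds by edgeR, DESeq2 or limma. By edgeR 4.23% of all tested genes were called higher and 3.87% lower. In the list 5 had an unadjusted p under 0.05 by edgeR, and the median was 0.04. At the adjusted p alone 2 were higher and 2 lower (18.8% and 18.7% of all tested genes). A pair of channels went opposite ways, named after their values were seen. VDAC2 had 385, 361 and 350 CPM in WT and 228, 222 and 227 CPM in MUL1(-/-) (log2 fold change -0.70, adjusted p = 1.04e-06). VDAC3 had 234, 218 and 255 CPM against 339.5, 351 and 352 CPM (0.56, adjusted p = 1.77e-05).

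Of 14 relatives of SLC6A8 and other creatine carriers, 10 were tested, with 1 called higher and 1 lower (4.23% and 3.87% of all tested genes). At the adjusted p alone 3 were higher and 3 lower (18.8% and 18.7% of all tested genes), and the median was 0.12. SLC6A13, a carrier of GABA and taurine, had 0.134, 0.346 and 0.246 CPM in WT and 0.806, 0.871 and 0.605 CPM in MUL1(-/-) (log2 fold change 1.64, SE 0.29, adjusted p = 0.000368). SLC16A12, known as a creatine exporter, had 0.252, 0.283 and 0.294 CPM against 0.0632, 0.168 and 0.0968 CPM (-1.33, SE 0.35, adjusted p = 0.00771). Both were low genes, and neither was tested when at least 1 CPM in 3 libraries was required. Without WT library 3, 4 genes of this list were called.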

How the data were processed

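RNA of 3 WT and 3 MUL1(-/-) HEK293 samples was sequenced after mRNA library preparation (SMARTer kit). Per the labels, the submitters' processing notes name Trimmomatic 0.36, STAR 2.5.2b and GRCh38; the counting program is not given in the sources used here. The deposited values are raw read counts per exon bin (597973 bins), with a read counted in every bin it touches and, as antisense genes share values, no evident use of strand. Counts were summed per gene here. Joined identifiers (2031, holding 21.0% of counts) were divided by same-strand GENCODE 29 exons, and bins that stayed ambiguous (4.37% of counts) were left out.

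edgeR 4.0.16 (TMM, filterByExpr, quasi-likelihood test, Benjamini-Hochberg adjustment over 25125 genes, all 6 libraries, no covariates) gave fold changes, standard errors and adjusted p-values. CPM is the count scaled to a TMM-adjusted library of 1000000. Neighbour levels per library were means of log2 CPM with a prior count of 2, since some neighbours had zeros, in place of the planned geometric mean of CPM. Alternatives used DESeq2 1.42.0 and limma 3.58.1 among others. The main edgeR fit, the DESeq2 and limma fits and the fit with a replicate block were tested on simulated data. The other alternatives were not. Replicates of a genotype differed by more than sampling noise (chi-square per degree of freedom 2.75 to 9.51), so none was counted as a duplicate. Intervals and floors (3 counts) cover counting error only. Transcript sequences are those of the reference annotation.

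The members, the gene lists and the rules were chosen with earlier results of these data known. Named were all members, the called or nearest neighbours of GAMT, called genes of the lists, and the closest profiles of called members; genes named outside this rule are said to be so.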

Additional observations from a re-analysis of the deposited data

How the results depend on the processing

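GAMT kept its direction and its call in all 15 refits other than the test against the fold threshold, with log2 fold changes of -1.19 to -1.10. The number of creatine genes called, 2, became 1 with a filter of at least 1 CPM in 3 libraries (CKM is then not tested) and 1 with the most counted bin, 0 with glmTreat, and 1 to 2 with a library left out. The number that passed on the adjusted p alone, 6, was 4 to 5 with a library left out and 4 with the most counted bin. CKM had log2 fold changes of 1.00 to 1.74 with a library left out, and 1.11 with the most counted bin. CKMT2 changed sign without MUL1(-/-) library 3 (0.072, adjusted p = 0.727). Called genes of methyl group supply went from 0 to 1 with no filter, and to 0 to 1 with a library left out; those of the phosphate relays from 1 to 0 to 1 and those of the SLC6 relatives from 2 to 2 to 4 with a library left out, and the latter to 0 with the filter at 1 CPM, under which they were not tested. GAMT less the median of its neighbours, -0.03, was -0.24 with 5 genes a side, -0.16 with 20, -0.10 with neighbours of at least 1 CPM, -0.12 with the most counted bin and -0.07 to 0.03 with a library left out. Chosen after seeing the data, protein-coding neighbours gave -0.12 and unshared bins 0.11. The cause of these shifts was not tested. All 10 bins of GAMT stayed lower under library totals and with any library left out.

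The labels number the libraries of both genotypes 1 to 3. Deviations of same-numbered libraries had r = -0.08, 0.16 and 0.10 over 15858 genes, and those of differently numbered libraries -0.18 to 0.10. With 3 libraries per genotype these values cannot decide whether the numbers pair them. The main fit used no pairing. With the replicate block 2 creatine genes were called and 5 passed on the adjusted p alone in place of 6, CKMT1A missing the threshold at 0.0508; GAMT less its neighbours was -0.02.

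GATM and CKM, with 13 to 78 counts per library, had the largest standard errors of the members (0.26 and 0.34 on the log2 scale).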
